A study of Bos taurus with 11 samples.

Results

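The hormone-sensing luminal axis of the mammary gland was followed through 9 genes of 18444 that had a probe set of their own on the array. They were taken by name: ESR1, PGR, FOXA1, GATA3, GREB1, XBP1, TNFSF11, TNFRSF11A and WNT4. Each is read by the probe set annotated to that symbol alone with the highest mean over all 11 arrays. ESR1 had a pair of such probe sets and both are given, so 10 of 26773 probe sets are described. The name of PGR rests on the annotation's symbol alone, whereas the other 8 were also found by gene number.

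The arrays hold mammary parenchyma of female Holstein heifer calves killed at 54 ± 2 days, 1 array for each calf. Elevated calves (n = 6) took 5.9 ± 0.2 (SE) Mcal of metabolisable energy a day as 8.4 L of milk replacer in 3 meals. Their energy ranged from 4.2 to 8.4 Mcal and their milk replacer from 6 to 12 L a day. Restricted calves (n = 5) took 2.8 ± 0.2 Mcal a day as 4 L in 2 meals. Both had the same milk replacer, with 28% protein and 15% fat, and the same starter grain from day 18. Meal number went with the amount fed and cannot be told apart from it. A sixth restricted calf had too little parenchyma to be separated from the fat pad and has no array. The labels put this down to little development of the gland, so the loss was not random with respect to the gland. The comparison asks how milk supply before weaning alters transcript levels in the gland, here those of the genes of this axis in whole parenchyma.

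In the mammary gland, oestrogen and progesterone act first on those luminal epithelial cells that carry their receptors. FOXA1 and GATA3 open chromatin for the oestrogen receptor there, and PGR and GREB1 are among the genes that the bound receptor switches on. In the mouse, these cells do not answer only for themselves: they release RANK ligand (TNFSF11) and WNT4, which act on neighbouring luminal and basal cells. In heifers before puberty, mammary epithelial cells carry the oestrogen receptor, and oestrogen from the ovary supports growth of the ducts.

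Values are log2 RMA signals as deposited, on which a step of 1 is a 2-fold difference, and differences are elevated minus restricted. Probe sets differ in brightness for the same amount of RNA, so levels are set side by side between calves and not between genes. The sample is bulk tissue, in which fewer hormone-sensing cells and less RNA per cell cannot be told apart. Luminal markers were present in every calf, the keratin gene KRT19 averaging 11.88 ± 0.33 in elevated and 11.19 ± 0.93 in restricted calves (SD, n = 6 and 5). The mean of 19 luminal markers had a lowest value of 8.39 and a highest of 9.31 in elevated calves. In restricted calves 1 to 5 it was 8.85, 6.55, 8.68, 7.94 and 8.81. Restricted 2 and restricted 4 thus stood apart from the other 3 restricted calves, and they also had the highest means of 15 adipocyte markers, 10.79 and 10.25, against 8.38 to 8.80 in those 3. Adipocyte means of elevated calves ran from 7.19 to 9.04. All 19 luminal markers averaged higher in elevated calves and all 15 adipocyte markers lower, though 0 of either list passed the test. All 7 skeletal muscle markers also averaged higher in elevated calves, with elevated 5 highest (list mean 7.85, against 6.27 to 7.36 in the other elevated calves and 6.04 to 6.62 in restricted ones). The part of epithelium, fat or muscle in the differences between diets was not tested, and values with the luminal mean in the fit are also given below.

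Across the array, 2 of 26773 probe sets passed an adjusted p of 0.05 in limma, 0.00747% of those tested. None of the 9 genes was among them, with adjusted p from 0.372 for XBP1 to 0.758 for WNT4. At an unadjusted p under 0.05, 3 of the 9 were higher in elevated calves (XBP1, TNFSF11 and FOXA1) and 0 were lower, against 4.95% of all probe sets higher and 5.33% lower, 10.3% in either direction. Complete separation of the diets occurred in 0 of the 9 genes and in 1.28% of all probe sets. The directions within the axis were mixed: ESR1, FOXA1, GATA3, XBP1, TNFSF11 and TNFRSF11A averaged higher in elevated calves, and PGR, GREB1 and WNT4 averaged lower.

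ESR1 encodes oestrogen receptor alpha, the receptor through which oestrogen drives growth of mammary ducts. Its brighter probe set (12896514) had a lowest value of 11.28, a median of 11.75 and a highest value of 11.98 in elevated calves. The restricted calves had 11.59, 10.42, 11.39, 11.07 and 11.59. In 4 of 6 elevated calves it was above every restricted calf, while elevated 4 and elevated 5 fell within the restricted range. The difference was 0.46 ± 0.22 (SE; 95% interval -0.02 to 0.94; limma adjusted p = 0.511), a 1.37-fold higher signal. It was 0.26 without restricted 2 and 0.15 without restricted 2 and restricted 4.

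The second ESR1 probe set (12896753) ranged from 8.23 to 9.80 with a median of 9.30 in elevated calves. In restricted calves it read 9.38, 7.73, 9.08, 8.33 and 9.10. Restricted 2 was again the lowest calf, and elevated 5 and elevated 4 were the lowest of their diet, in the same places as with the brighter probe set. Its difference of 0.40 ± 0.34 had the same direction (95% interval -0.34 to 1.14; limma adjusted p = 0.723). It was 0.15 without restricted 2 alone and turned to -0.06 without restricted 2 and restricted 4, so the direction of ESR1 between diets was not the same for both probe sets once those calves were left out.

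PGR encodes the progesterone receptor, which in the mouse is needed for side branching and is itself made in response to oestrogen. Probe set 12726622 ran from 6.48 to 7.75 with a median of 7.25 in elevated calves. The restricted calves had 8.46, 5.92, 8.47, 7.30 and 8.77. Restricted 1, restricted 3 and restricted 5 were higher than every elevated calf, but restricted 2 was the lowest of all 11 and restricted 4 lay among the elevated calves. All 6 elevated calves were below the restricted median. The mean was 7.18 ± 0.53 in elevated and 7.78 ± 1.18 in restricted calves (SD, n = 6 and 5), a difference of -0.60 ± 0.48 (95% interval -1.65 to 0.44; limma adjusted p = 0.701). Single calves moved this value by over 1.5 times: it was -1.07 without restricted 2 and -0.36 without restricted 5.

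FOXA1 is the pioneer factor that lets the oestrogen receptor reach its sites in luminal cells. Elevated calves had a lowest value of 9.66, a median of 10.40 and a highest of 10.59. The restricted values were 10.01, 7.24, 9.77, 8.84 and 9.85. Of the elevated calves, 4 exceeded every restricted calf, and restricted 2 and restricted 4 were the lowest calves of the study. The difference was 1.12 ± 0.44 (SE; 95% interval 0.15 to 2.08; limma unadjusted p = 0.0274, adjusted p = 0.429), a 2.17-fold higher signal, and it was 0.64 without restricted 2.

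GATA3, a factor that specifies and maintains luminal cells, followed the same order of calves at its low end. Its lowest, median and highest elevated values were 9.82, 10.53 and 10.96. Restricted calves had 10.60, 7.50, 10.08, 9.10 and 10.06. The diets overlapped more than for FOXA1, because restricted 1 was above 4 of the 6 elevated calves. The difference was 1.02 ± 0.47 (95% interval -0.01 to 2.05; limma adjusted p = 0.489), and without restricted 2 it was 0.53.

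GREB1, an early target and a cofactor of the oestrogen receptor in human breast cells, was read at 5.45 to 7.19 with a median of 6.36 in elevated calves. Values in restricted calves were 7.42, 5.65, 7.58, 6.02 and 7.66. The calves fell into the same picture as for PGR: restricted 1, restricted 3 and restricted 5 were the 3 highest calves and no elevated calf reached the restricted median. Elevated 5 was the lowest calf for GREB1. The difference was -0.51 ± 0.41 (95% interval -1.41 to 0.40; limma adjusted p = 0.712). It was -0.81 without restricted 2, -0.31 without restricted 5, -0.33 without restricted 3 and -0.32 without elevated 5.

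XBP1 serves the secretory pathway as the factor of the unfolded protein response and is also an oestrogen-regulated gene of luminal breast cells. It had the smallest p of the 9 genes. Elevated calves lay between 10.83 and 11.37 with a median of 11.05. Restricted calves held a narrow band, 10.83, 10.70, 10.88, 10.75 and 10.78. All elevated calves but elevated 4 were above every restricted calf, and restricted 2 was only slightly below the others of its diet, unlike for FOXA1 or GATA3. The difference was 0.31 ± 0.10 (95% interval 0.08 to 0.53; limma unadjusted p = 0.0128, adjusted p = 0.372), a 1.24-fold higher signal, and it ran from 0.25 to 0.36 when single calves were left out.

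TNFSF11 encodes RANK ligand, which in the mouse carries the progesterone signal from receptor-bearing cells to their neighbours. Elevated calves had a lowest value of 6.98, a median of 8.04 and a highest of 8.50. Restricted calves had 6.98, 4.83, 7.03, 6.16 and 7.68. Of the 6 elevated calves, 4 were above all restricted calves, and all 6 were above the restricted median. Its difference, 1.35 ± 0.47, was the widest of the 9 genes (95% interval 0.32 to 2.39; limma unadjusted p = 0.0144, adjusted p = 0.376), a 2.56-fold higher signal. Without restricted 2 and restricted 4 it was 0.66.

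TNFRSF11A, the gene of the receptor RANK, differed little between calves, from 5.06 to 5.54 in elevated ones (median 5.23) and 5.07, 5.12, 5.16, 4.95 and 5.41 in restricted ones. The difference was 0.12 ± 0.10 (95% interval -0.11 to 0.35; limma adjusted p = 0.732). WNT4, a progesterone-induced ligand that acts on basal cells in the mouse, read 3.93 to 4.57 in elevated calves (median 4.12). Its restricted values were 3.97, 4.41, 4.01, 4.70 and 4.53. The difference was -0.17 ± 0.16 (95% interval -0.51 to 0.18; limma adjusted p = 0.758). Single calves moved both values by over 1.5 times: TNFRSF11A ran from 0.064 without elevated 5 to 0.19 without restricted 5, and WNT4 from -0.25 without restricted 1 to -0.071 without restricted 4. Both genes had means below the median of all probe sets, where RMA compresses differences, and their groups overlapped almost fully.

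**Figure D1:**
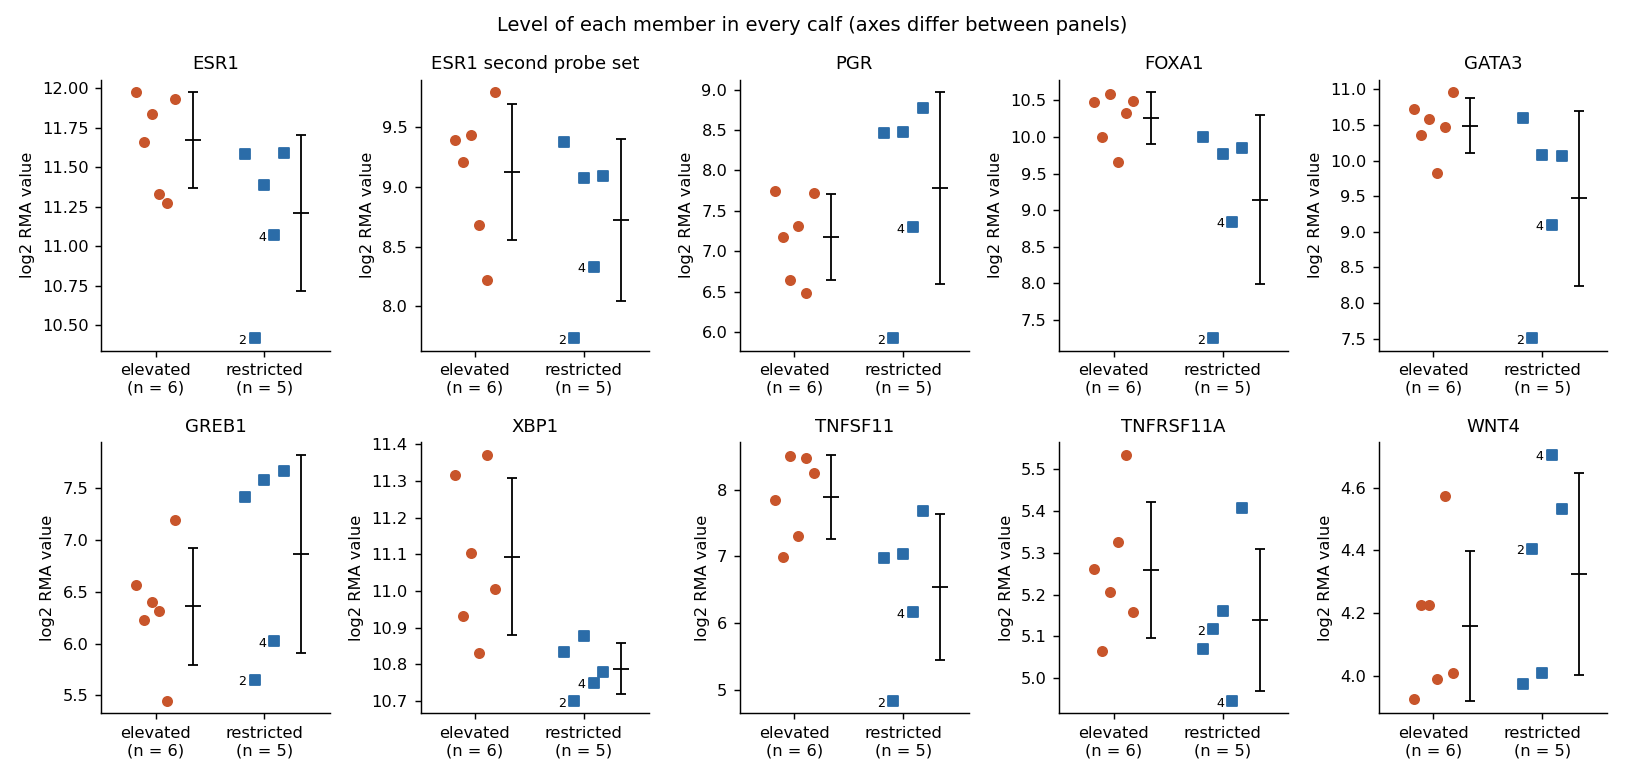
Level of each gene of the axis in every calf, as log2 RMA value on the vertical axis, with elevated calves (circles) left of restricted calves (squares). Bars give the mean and SD, axes differ between panels, and the squares marked 2 and 4 are restricted 2 and restricted 4, which are low for ESR1, FOXA1, GATA3 and TNFSF11, whereas the other 3 restricted calves are the highest for PGR and GREB1.

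The genes fell apart by how closely they followed the epithelial markers of the same calf. Over 11 calves, ESR1 increased with the luminal marker mean at r = 0.97 and Spearman rho = 0.95 (adjusted permutation p = 8.5e-05 and 6.8e-04). FOXA1 did so at r = 0.98 and rho = 0.86 (adjusted permutation p = 3.82e-04 and 0.0068), and GATA3 at r = 0.98 and rho = 0.90 (adjusted permutation p = 8.5e-05 and 0.00501). The raw permutation p of the Pearson r for ESR1 and GATA3, 1e-05, is the smallest that 100000 resamples can give, and 17 relations were computed and adjusted together. Leaving out restricted 2 and restricted 4, the calves farthest from the median luminal mean, these were r = 0.93, 0.83 and 0.85, each still past the threshold (adjusted permutation p = 0.0143, 0.0423 and 0.0411). These genes and the markers share each array and its content of epithelium.

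TNFSF11 also followed the luminal mean, at r = 0.89 and rho = 0.60 (adjusted permutation p = 0.00241 and 0.0934). That relation rested on the same calves, since without them r was 0.51 (adjusted permutation p = 0.334).

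The relations of PGR and GREB1 with the luminal mean did not pass over all calves. For PGR r was 0.53 and rho 0.45 (adjusted permutation p = 0.152 and 0.225), and r was 0.01 without restricted 2 and restricted 4. For GREB1 r was 0.51 and rho 0.59 (adjusted permutation p = 0.152 and 0.0934), and r was 0.19 without them. With the mean of each diet taken out, PGR followed the luminal mean at r = 0.88 and GREB1 at r = 0.84 (adjusted permutation p = 0.0165 and 0.0104), though without restricted 2 these were 0.65 and 0.79 and neither passed (adjusted permutation p = 0.091 and 0.0541). XBP1, TNFRSF11A and WNT4 had r of 0.57, 0.26 and -0.46 with the luminal mean, and none passed (adjusted permutation p = 0.132, 0.458 and 0.184).

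**Figure D2:**
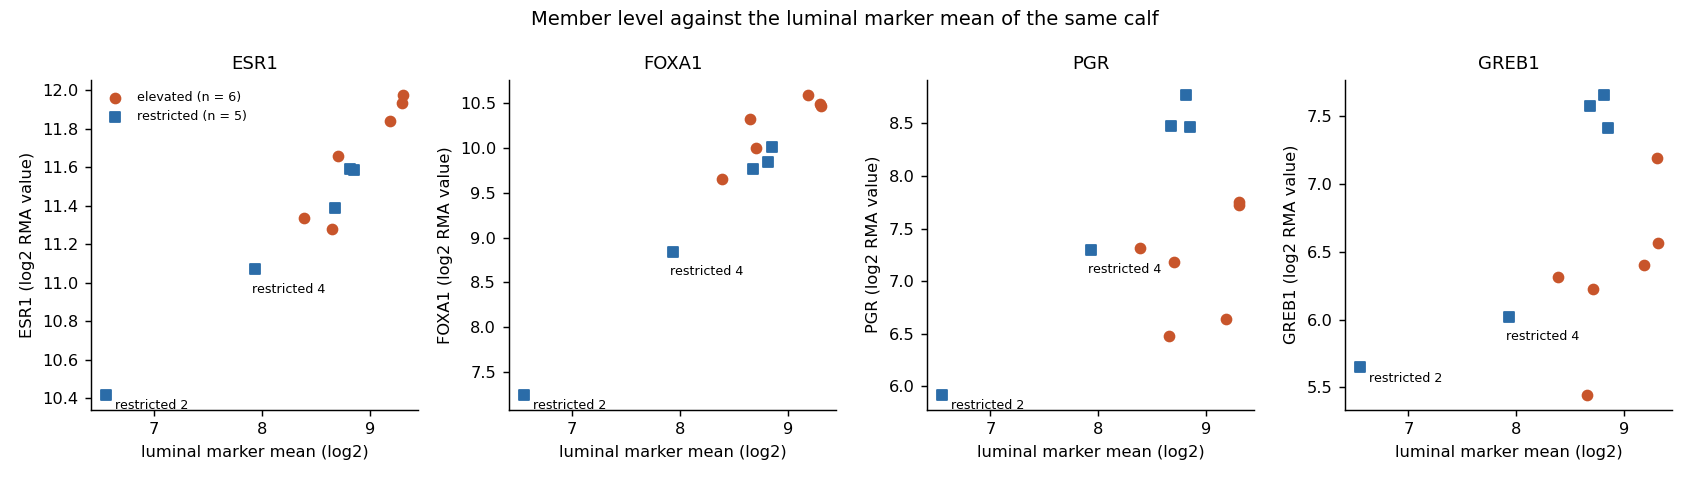
Log2 level of ESR1, FOXA1, PGR and GREB1 (vertical axes) against the mean of 19 luminal markers in the same calf (horizontal axis), elevated calves as circles and restricted calves as squares. ESR1 and FOXA1 increase with the luminal mean in both diets together, while for PGR and GREB1 restricted 1, restricted 3 and restricted 5 lie above the elevated calves of like luminal mean.

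Between the receptor and its targets the relation had the same form. ESR1 and PGR had r = 0.50 and rho = 0.39 over all calves (adjusted permutation p = 0.153 and 0.267), and 0.04 without restricted 2 and restricted 4. With diet means removed r was 0.87 (adjusted permutation p = 0.0119), and 0.69 when restricted 2 was also left out (adjusted permutation p = 0.0756). ESR1 and GREB1 had r = 0.51 and rho = 0.54 over all calves (adjusted permutation p = 0.152 and 0.134). Within diets their r was 0.87 (adjusted permutation p = 0.00433) and 0.80 without restricted 2 (adjusted permutation p = 0.0196), although it was 0.74 and no longer past the threshold without restricted 4 as well (adjusted permutation p = 0.157).

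ESR1 and its partner factors moved together, at r = 0.93 and rho = 0.80 with FOXA1 and r = 0.93 and rho = 0.81 with GATA3 (adjusted permutation p of r = 7.48e-04 and 3.82e-04, of rho = 0.0153 for both). Without restricted 2 and restricted 4 these were 0.69 and 0.73 and did not pass (adjusted permutation p = 0.135 and 0.0882). ESR1 and XBP1 had r = 0.51 and rho = 0.60 (adjusted permutation p = 0.152 and 0.0934). RANK ligand and its receptor, TNFSF11 with TNFRSF11A, gave no relation past the threshold, at r = 0.58 and rho = 0.70 (adjusted permutation p = 0.132 and 0.0577). Nor did PGR with the progesterone-induced gene WNT4, at r = -0.35 and rho = -0.42 (adjusted permutation p = 0.327 and 0.236). PGR and TNFSF11, which is induced through PGR in the mouse, had r = 0.23 and rho = 0.01 (adjusted permutation p = 0.5 and 0.989), and r was -0.46 without restricted 2 and restricted 5, the calves farthest from the median of PGR.

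With the luminal marker mean of each calf in the fit, PGR and GREB1 lay farther from 0 and the other genes closer to it. The difference of PGR became -1.43 ± 0.28 (SE; 95% interval -2.05 to -0.80) and that of GREB1 -1.19 ± 0.27 (95% interval -1.79 to -0.58). Both had an unadjusted p under 0.05 in limma, 4.11e-04 and 0.00128, but neither passed over all probe sets (adjusted p = 0.162 and 0.211). These were the 2 of 9 genes lower at that unadjusted level, and 0 were higher, beside 5.3% of all probe sets in each direction and 0.0224% called. The difference was 0.27 for FOXA1, 0.13 for GATA3, 0.05 for ESR1, 0.57 for TNFSF11 and 0.24 for XBP1, each with a 95% interval that included 0. Markers of other cells also differed in this fit. Of 10 basal and myoepithelial markers, 5 were higher and 5 lower, with a median of 0.03. At an unadjusted p under 0.05, 4 were lower and 0 higher. Among those 4 were TP63 at -0.98, KRT5 at -0.91 and KRT14 at -0.88, whereas ITGB4 was the highest of the list at 0.40. ELF5, a factor of luminal progenitors, differed by -1.32. TP63, KRT14, ITGB4 and ELF5 were named after their values were seen. Of 7 skeletal muscle markers, 5 were higher and 0 lower at that level, with ACTA1 at 1.45, named after its value was seen. None of these passed over all probe sets, and their part in the values of PGR and GREB1 was not tested. With the adipocyte mean in place of the luminal one, PGR differed by -1.38, GREB1 by -1.23 and ESR1 by 0.02.

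Leaving restricted 2 and restricted 4 out gave nearly the same values for PGR and GREB1 without any covariate. These were the lowest restricted calves for both genes, so leaving them out could only lower the differences. They also had the lowest luminal means, so this fit is not separate support for the one with the luminal mean. PGR differed by -1.39 ± 0.29 and GREB1 by -1.19 ± 0.30 (limma adjusted p = 0.173 and 0.294, with 25 probe sets, 0.0934%, called). They were the 2 of 9 genes at an unadjusted p under 0.05 in this fit, both lower, beside 4.76% of all probe sets lower and 8.72% in either direction. The highest elevated value of PGR, 7.75, was then below the lowest remaining restricted value, 8.46. That separation followed from which calves were left out, and 3.04% of all probe sets had one in that direction. FOXA1 differed by 0.38, GATA3 by 0.24 and XBP1 by 0.26 in this comparison of 6 with 3 calves.

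**Figure D3:**
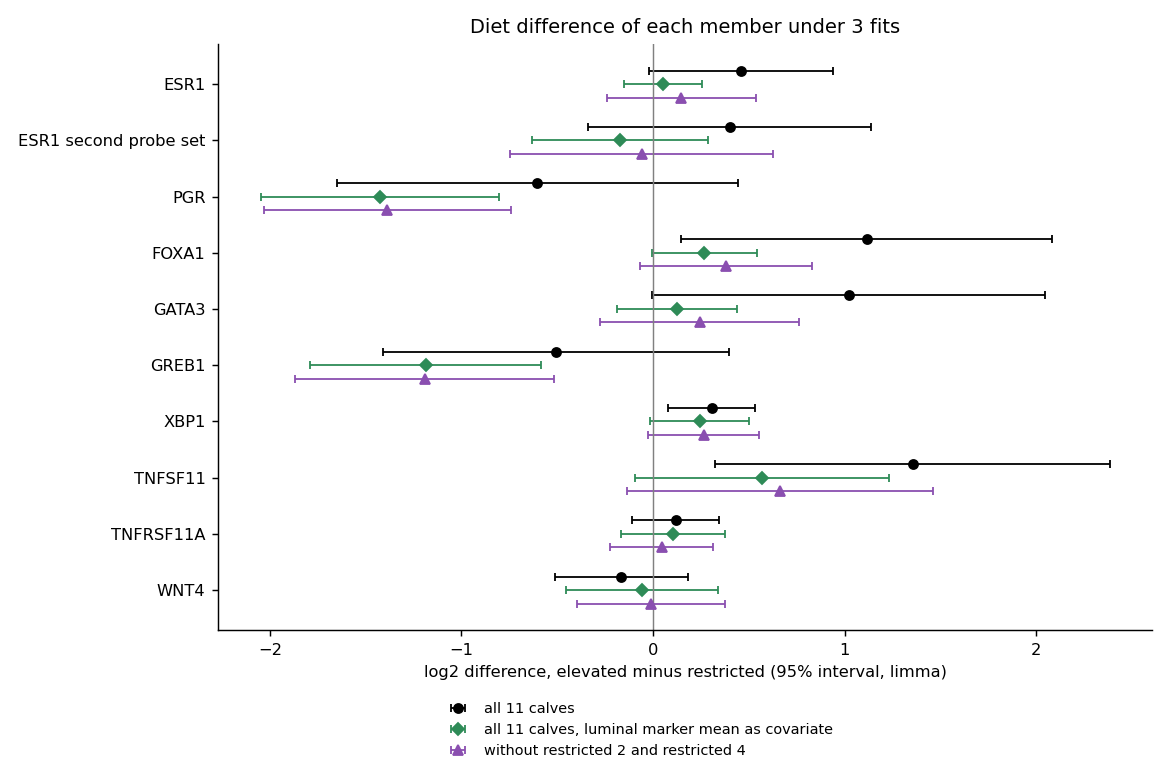
Log2 difference, elevated minus restricted, of each gene with its 95% interval from limma, over all 11 calves (circles), with the luminal marker mean as covariate (diamonds) and without restricted 2 and restricted 4 (triangles). PGR and GREB1 move from -0.60 and -0.51 to between -1.43 and -1.19, and the other genes move towards 0.

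Gaps between genes within a calf were compared next, which tests whether the diet differences of a pair of genes differ from each other. The size of a gap depends on the brightness of both probe sets, so only its difference between diets is read. The 8 gaps were chosen with earlier results of these data known, among them the direction of PGR and FOXA1. Their p-values are therefore not independent support for the direction of any of these genes. TNFSF11 minus PGR also sets the highest diet difference of the 9 genes, 1.35, against the lowest, -0.60. PGR minus FOXA1 had values of -3.96 to -2.34 with a mean of -3.08 ± 0.66 in elevated calves. In restricted calves it was -1.54, -1.32, -1.30, -1.54 and -1.08, with a mean of -1.36 ± 0.19 (SD, n = 5). No calf of either diet lay in the range of the other, and restricted 2 and restricted 4 fell in with the rest of their diet. Taken singly, FOXA1 differed by 1.12 and PGR by -0.60, and neither passed in limma. The difference of the gap, -1.72, had an exact two-sided permutation p of 0.00216 (0.00866 adjusted over the 8 gaps). That p is the smallest that 462 splits can give. Complete separation in this direction was found for 4.24% of all probe sets set against FOXA1.

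PGR minus the luminal marker mean ran from -2.54 to -1.08 in elevated calves. It was -0.39, -0.63, -0.20, -0.64 and -0.04 in restricted calves. The diets again did not overlap, as for 1% of all probe sets set against that mean and lower in elevated calves. The difference was -1.36 (exact permutation p = 0.00433, adjusted 0.00866) and stayed between -1.49 and -1.20 when any 1 calf was left out. Part of it came from the luminal mean itself, which averaged 8.92 in elevated and 8.17 in restricted calves. GREB1 minus the luminal mean, chosen after its values were seen and not tested, ran from -3.21 to -2.07 in elevated calves and from -1.92 to -0.90 in restricted calves.

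TNFSF11 and PGR parted in the opposite direction. TNFSF11 minus PGR ran from -0.20 to 1.98 in elevated calves, with elevated 3 and elevated 5 highest. Its restricted values were close together at -1.48, -1.09, -1.44, -1.14 and -1.09. The groups did not overlap, as was true of 0.631% of all probe sets set against PGR, and the difference was 1.96 (exact permutation p = 0.00433, adjusted 0.00866). RANK ligand signal was higher relative to progesterone receptor signal in every elevated calf than in any restricted calf.

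FOXA1 minus the luminal mean ran from 1.17 to 1.68 in elevated calves and was 1.15, 0.69, 1.09, 0.90 and 1.03 in restricted calves. The separation was complete but narrow, with 1.165 as the lowest elevated and 1.154 as the highest restricted value. It was found for 0.0187% of all probe sets set against that mean and higher in elevated calves. The luminal mean itself averaged higher in elevated calves, 8.92 against 8.17, which makes separation in this direction rarer than in the other (1%). With the luminal mean in the fit, FOXA1 had a limma unadjusted p of 0.053, adjusted 0.479. For the gap, the difference of the diet means was 0.36 (exact permutation p = 0.00433, adjusted 0.00866). Without restricted 2 and restricted 4 it was 0.24 and did not pass (exact permutation adjusted p = 0.0952). ESR1 minus the luminal mean differed by -0.30 (exact permutation p = 0.169, adjusted 0.193), and by 0.01 without those calves.

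PGR minus ESR1 was -5.20 to -4.02 in elevated calves and -3.13, -4.50, -2.91, -3.77 and -2.82 in restricted calves, a difference of -1.06 (exact permutation p = 0.0238, adjusted 0.0317). Restricted 2 lay among the elevated calves, and the adjusted p exceeded the threshold in 8 of the 11 repeats that left out 1 calf, reaching 0.0762. The difference ran from -1.33 to -0.91 in those 11 repeats, which allow fewer splits. Without restricted 2 and restricted 4, the lowest restricted calves for this gap, it was -1.54 (exact permutation adjusted p = 0.0317). TNFSF11 minus TNFRSF11A differed by 1.24 (exact permutation p = 0.0216, adjusted 0.0317) and by 0.61 without restricted 2 and restricted 4 (adjusted 0.136), and it did not pass in 5 of the 11 repeats. WNT4 minus PGR differed by 0.44 (exact permutation p = 0.496, adjusted 0.496). That value ran from 0.18 without restricted 1 to 0.92 without restricted 2. Without restricted 2 and restricted 4, the highest restricted calves for this gap, it was 1.37 (exact permutation p = 0.0357, adjusted 0.0571). In all, 6 of the 8 gaps passed.

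**Figure D4:**
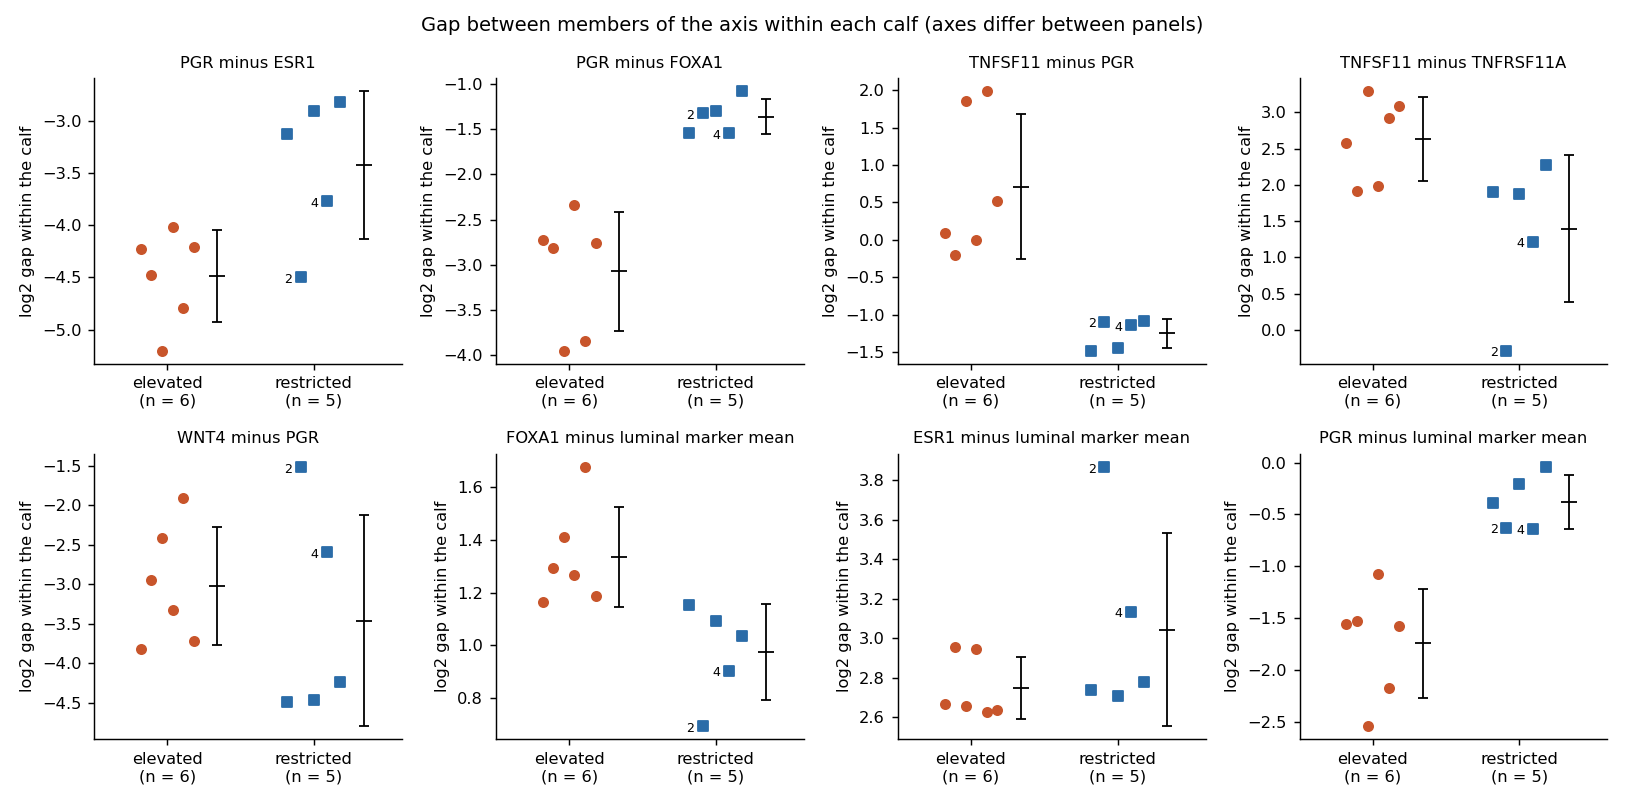
Log2 gap between a pair of genes, or between a gene and the mean of 19 luminal markers, within each calf (vertical axes), elevated calves (circles) left of restricted calves (squares), with mean and SD. The diets do not overlap for PGR minus FOXA1, TNFSF11 minus PGR, FOXA1 minus luminal mean and PGR minus luminal mean, and the squares marked 2 and 4 lie with their own diet in these.

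Genes that work with the axis were read in the across-array fit from lists chosen by function, and 0 genes of any list passed the adjusted threshold. Over all probe sets 13593 averaged higher and 13180 lower in elevated calves, with a median difference of 0.0031. At an unadjusted p under 0.05 in limma, 4.95% of all probe sets were higher and 5.33% lower. With the luminal mean in the fit, 5.3% were past that level in each direction. Of 13 other genes of hormone-sensing luminal cells, 9 averaged higher and 4 lower (median 0.35), 6 of them higher and 0 lower at an unadjusted p under 0.05. Among these, the AP-2 factor gene TFAP2B differed by 1.39, the neuregulin receptor gene ERBB4 by 1.29, the ETS factor gene SPDEF by 1.08 and the T-box gene TBX3 by 0.35. With the luminal mean in the fit, TFAP2B differed by 0.52, SPDEF by 0.49, ERBB4 by 0.43 and TBX3 by 0.16, and 3 of the 13 were higher at that unadjusted level and 2 lower. The lower ones, named after their values were seen, were TFAP2C, another AP-2 factor gene, at -0.74, the smallest p of the list, and AGR2 at -1.17.

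Other hormone receptors went in both directions, 4 of 9 higher and 5 lower with a median of -0.06. At an unadjusted p under 0.05, 3 were higher and 2 lower, beside 4.95% and 5.33% of all probe sets. With the luminal mean in the fit, 2 were higher and 0 lower at that level, beside 5.3% in each direction. The orphan receptor gene ESRRG differed by 0.80, the prolactin receptor gene PRLR by 1.05 and ESR2, the second oestrogen receptor gene, by 0.47, whereas GPER1, a membrane receptor for oestrogen, differed by -0.72. ESR2 had 5.32 to 5.87 in elevated calves and 5.32, 5.27, 4.70, 5.24 and 4.82 in restricted calves. Its groups met at 5.32, and its adjusted p was 0.355 in limma. With the luminal mean in the fit, ESRRG differed by 0.48, PRLR by 0.27, ESR2 by 0.56 and GPER1 by -0.35. Of 14 coregulators of steroid receptors, 13 averaged higher and 1 lower, by a median of 0.06. The coactivator gene NCOA2 differed by 0.40 (limma unadjusted p = 0.00222) and NCOA1 by 0.19, the corepressor gene TLE3 by 0.28, and FKBP4, a chaperone of the progesterone receptor, by 0.39. NCOA2 kept a difference of 0.29 with the luminal mean in the fit, and FKBP4 one of 0.04.

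Of 16 other oestrogen-responsive genes, 12 averaged higher and 4 lower, with a median of 0.07. At an unadjusted p under 0.05 there was 1, beside 10.3% of all probe sets in either direction. That gene was the adenylate cyclase gene ADCY9, which differed by 0.31. It did not overlap between diets, as for 1.28% of all probe sets. The stanniocalcin gene STC2 differed by 1.04, with elevated 5 at 9.09 far above the other elevated calves (6.29 to 6.97), IGFBP4 by -0.37 and TPBG by -0.27. With the luminal mean in the fit, STC2 differed by 0.79, IGFBP4 by -0.10, and 2 of the 16 were higher and 2 lower at the unadjusted level. Of those, PDZK1 at -1.04 and SCUBE2 at 0.85, named after their values were seen, lay farthest from 0.

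Partners of RANK and WNT4 were split evenly, 9 of 19 higher and 10 lower (median -0.01). At an unadjusted p under 0.05, 3 of them were higher, beside 4.95% of all probe sets. LGR5 and LGR4, receptors for R-spondins, differed by 0.54 and 0.37 (0.43 and 0.11 with the luminal mean in the fit), MAP3K14, the kinase that starts the non-canonical NF-kappaB pathway below RANK, by 0.20, and NFKB1 by 0.14. With the luminal mean in the fit, 1 of the 19 was higher and 1 lower at that level. Of 9 genes of the unfolded protein response that XBP1 serves, 7 averaged higher and 2 lower with a median of 0.05. ERN1, whose product splices XBP1 mRNA, differed by 0.35, SDF2L1 by 0.23, EDEM1 by 0.16 and SSR1 by -0.06. With the luminal mean in the fit, ERN1 differed by 0.30, SDF2L1 by 0.22, EDEM1 by -6.94e-04, and 0 of the 9 had an unadjusted p under 0.05.

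The genes whose pattern over calves was most like that of ESR1 were sought by the root mean square gap between centred log2 values among 17471 genes. STXBP2 (0.076), EZR (0.079), SYDE2 (0.089), PTPRF (0.104) and SH2D4A (0.107) came closest, gaps well under the SD of ESR1 over calves, 0.45. For PGR, whose SD over calves was 0.90, the closest genes were farther away: IGLON5 (0.28), PTPRZ1 (0.33), DNAAF11 (0.36), ADGRV1 (0.37) and CLCA2 (0.37). IGLON5 had 6.34 to 7.80 in elevated calves and 8.44, 6.60, 8.49, 7.29 and 8.60 in restricted calves, so that restricted 1, restricted 3 and restricted 5 were its highest calves too. The 5 genes near PGR differed between diets by -0.59 to -0.18, and none passed in limma.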

How the data were processed

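Total RNA of mammary parenchyma was hybridised to 1-colour arrays, 100 ng per sample with an integrity number above 7.0, per the labels' protocols. The authors deposited log2 values per probe set. Per the submitters' processing notes the values come from RMA; neither a version nor settings are given there. RMA gives all arrays nearly the same distribution (array medians 6.37 to 6.45), so a change in total RNA cannot appear. The number of arrays limits the precision. Arrays correlated at 0.964 to 0.990, and no scan date, slide or other batch was given. Samples labelled as replicates are different calves. No coordinates are given because the build of the array is not named.

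Groups were taken from the labels. Differences were fitted with limma 3.58.1 (lmFit and eBayes, R 4.3.3) over all 11 arrays and 26773 probe sets, with no filter, and adjusted by Benjamini-Hochberg over all of them at 0.05. Intervals are at 95%. Gaps within a calf were tested by exact two-sided permutation over 462 splits, adjusted over 8. Relations used 100000 permutations in numpy 2.4.6, with ranks from scipy 1.17.1, adjusted over 17. The tests were checked on simulated data. For the diet comparison, 41.8% of 1.5-fold, 64.2% of 2-fold and 98.5% of 4-fold changes set into such data were recovered. Of 154 calls there, 18 were false, a larger share than 0.05, and with no change set in 0 probe sets were called. The shares recovered need not hold for genes that vary widely between calves. FOXA1 and TNFSF11, with SE of 0.44 and 0.47, did not pass at 2.17-fold and 2.56-fold. Alternatives were quantile normalisation, median centring, a filter on dim probe sets, 1-symbol probe sets, other variance models, array weights, the replicate number as a block, marker covariates and leaving out calves. Fits without restricted 2, restricted 4 or elevated 5 were added knowing the data.

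Of 26773 probe sets 18790 had 1 symbol, 385 several and 7598 none. The genes of the axis, the lists and the tests were chosen with earlier results of these data known. Named were all 9 genes, up to 4 of each pathway list with the smallest p, up to 3 markers with the highest mean and 2 with the smallest p, and the 5 genes most like ESR1 and PGR. Some listed genes are not reported here. Promoter motifs were not analysed here.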

Additional observations from a re-analysis of the deposited data

How the results depend on the processing

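None of the 9 genes passed the adjusted threshold under any of the 26 alternatives run, and ESR1 (brighter probe set), FOXA1, GATA3, XBP1, TNFSF11, PGR and GREB1 kept their direction in all. Differences when 1 calf was left out ran from 0.26 to 0.55 for ESR1, 0.64 to 1.33 for FOXA1, 0.53 to 1.30 for GATA3, 0.93 to 1.64 for TNFSF11, 0.25 to 0.36 for XBP1, 0.15 to 0.58 for the second ESR1 probe set, 0.064 to 0.19 for TNFRSF11A, -0.25 to -0.071 for WNT4, -1.07 to -0.36 for PGR and -0.81 to -0.31 for GREB1. The second ESR1 probe set reversed to -0.23 with the adipocyte covariate, -0.17 with the luminal covariate, -0.060 without restricted 2 and restricted 4, and -0.24, -0.23 and -0.058 with the luminal covariate and without restricted 2, without that calf and restricted 4, and without these and elevated 5. TNFRSF11A reversed to -0.0087 without the 3 calves and -9.39e-04 with the luminal covariate as well, and WNT4 to 0.015 with that covariate and without restricted 2 and restricted 4. The cause was not tested. With dim probe sets left out, TNFRSF11A and WNT4 had no value.

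The count of probe sets called over the array, 2, was 1 among 1-symbol probe sets, 4 with array weights, 0 with an unmoderated test, 0 with the adipocyte covariate, 6 with the luminal covariate, 25 without restricted 2 and restricted 4, and 15 without elevated 5 too. With the luminal covariate it was 1 without restricted 2, 15 without restricted 2 and restricted 4, and 8 without all 3. When 1 calf was left out it ran from 0 to 12: it was 0 without restricted 1, restricted 5, elevated 3 or elevated 1, 1 without elevated 6, 12 without elevated 4 and 8 without restricted 2. The replicate numbers of the labels did not pair calves (correlations of deviations 0.21, 0.053, 0.10, 0.084 and -0.15). The replicate block left 0 probe sets called and 0 of the 9 genes, with -0.71 for PGR, and elevated 6, which has no partner, adds nothing to that fit.

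Of the gaps, 4 to 6 of 8 passed when 1 calf was left out. PGR minus FOXA1, TNFSF11 minus PGR and PGR minus luminal mean passed in all 12 repeats. ESR1 minus luminal mean reversed to 0.0068 without restricted 2 and restricted 4. Of 17 relations, 6 passed over all calves, 3 without the 2 farthest calves, 10 with diet means removed and 3 with these removed and restricted 2 and restricted 4 left out. PGR with TNFSF11 reversed to -0.46 without the 2 farthest calves, -0.35 without restricted 2 and -0.27 within diets without restricted 2 and restricted 4. The luminal mean with TNFRSF11A reversed to -0.26 without the 2 farthest and -0.30 within diets without restricted 2 and restricted 4.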

Other observations

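AREG, the gene of amphiregulin, the growth factor by which oestrogen acts on neighbouring cells in the mouse, was named after its values were seen. In elevated calves it stood at 4.51 in elevated 5 and at 8.31 to 9.29 in the other 5 calves. In restricted calves it was 9.25, 5.72, 8.60, 7.90 and 9.19. Elevated 5 was also the lowest calf for GREB1 (5.45), the lowest elevated calf for PGR (6.48) and ESR1 (11.28), and yet the highest of all calves for XBP1 (11.37) and among the highest for TNFSF11 (8.46). The diets overlapped for AREG, with a difference of -0.10 (limma adjusted p = 0.978). It was 0.60 without elevated 5, chosen after seeing the data (limma adjusted p = 0.772), and -1.30 with the luminal mean in the fit (limma adjusted p = 0.592). Skeletal muscle markers were highest in the same calf (list mean 7.85), and their part in its values was not tested.

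Basal and myoepithelial markers, which belong to the outer epithelial layer, averaged higher in elevated calves for 7 of 10 genes and lower for 3. With the luminal mean in the fit, 5 of the 10 were higher and 5 lower, with a median of 0.03. At an unadjusted p under 0.05, 4 were lower and 0 higher, beside 5.3% of all probe sets in each direction. Among those 4 was KRT5 by -0.91, and 0 of the 10 passed adjustment over the array.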
